A study of Mus musculus with 10 samples.

Results

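Chemosensory transduction genes were examined in tuft cells and non-tuft epithelial cells sorted from the mouse pancreas during caerulein-induced pancreatitis. The genes were fixed by name from the taste cell cascade: the receptor gene Tas1r3, the G protein subunit genes Gnat3, Gnb3 and Gng13, the regulator gene Rgs13, the phospholipase gene Plcb2, the calcium release channel gene Itpr3 and the cation channel gene Trpm5. Of these 8 genes, 7 were among the 12160 genes of the deposited table. Gnb3 was not listed under its symbol and was not analysed here.

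Male mice of wild type genotype, given repeated cycles of the peptide caerulein, which overstimulates acinar cells through cholecystokinin receptors, were the source of all libraries. The strain is CD1 in the protocol of the sample records and "Mixed" in their strain field, and ages are not given in the sources used here. Tuft cells were sorted as Cd45-neg; EpCAM+; Siglec f+ and non-tuft epithelial cells as Cd45-neg; EpCAM+; Siglec f-neg, with 5 libraries of 100 cells in each group. Untreated pancreas was not part of the comparison, so both groups carried the injury, and the non-tuft group held acinar, ductal and islet marker transcripts. All values below are log2(RPKM + 1), where RPKM is reads scaled to transcript length and to mapped reads, after quantile normalization of all libraries to the same distribution by the authors.

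In taste cells, sweet, umami and bitter compounds bind G protein-coupled receptors of the Tas1r and Tas2r families. The receptor activates a G protein of gustducin alpha (Gnat3) with a beta and a gamma subunit, and the released beta and gamma subunits stimulate phospholipase C beta (Plcb2). Inositol trisphosphate then opens its receptor (Itpr3) on the endoplasmic reticulum, and the calcium that leaves the store opens Trpm5, a monovalent cation channel that depolarizes the cell. Tuft cells of the gut, airway and bile duct use parts of the same cascade, and Trpm5 is also known from islet cells.

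The sorted groups differed in Siglecf in the way that the Siglec f gate selects for. Epcam was at 9.19 to 10.87 in the tuft libraries and 7.44 to 9.08 in the non-tuft libraries. Transcripts of Ptprc, the gene behind the negative Cd45 gate, were present in all tuft libraries and are given below. Siglecf ranged from 5.62 to 7.52 in tuft cells, and of the non-tuft libraries only number 2 had a value above the floor, 1.61. Of 14 listed tuft markers, 13 were called higher in tuft cells, where called means an adjusted p under 0.05 from limma and a fold change over 4. Genes with no reads share the minimum of their library, referred to as the floor, which was 0.17 in non-tuft library 2 and 0 elsewhere. Of 12 acinar markers, 9 were called lower in tuft cells. The acinar markers were not absent from the tuft libraries, with a summed linear level of 698 to 67119 against 65175 to 96581 in the non-tuft libraries. In bulk libraries such as these, fewer cells of a type and less RNA per cell cannot be told apart. Sequencing depth is unknown, as the values are not counts.

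The cascade genes differed in how they compared between the groups. Trpm5, Plcb2, Rgs13, Gnat3 and Gng13 were called higher in tuft cells, and Tas1r3 and Itpr3 were not called. These were 5 of the 7 listed genes, where 4.32% of all 12160 genes were called higher and 8.31% in either direction. The cascade genes were chosen with earlier results of these data known, and the study used Trpm5 among the markers of its sorted tuft cells. The shares of all genes are thus given for scale and do not test the list. The median log2 fold change was 3.10 over the 7 genes and 0.02 over all genes. For 4 of them (Trpm5, Plcb2, Rgs13 and Gnat3) every tuft library lay above every non-tuft library, which was so for 6.31% of all genes. All 7 were above the floor in every tuft library, as were most genes, with 1538 to 2764 of the 12160 at the floor per tuft library.

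**Figure D1:**
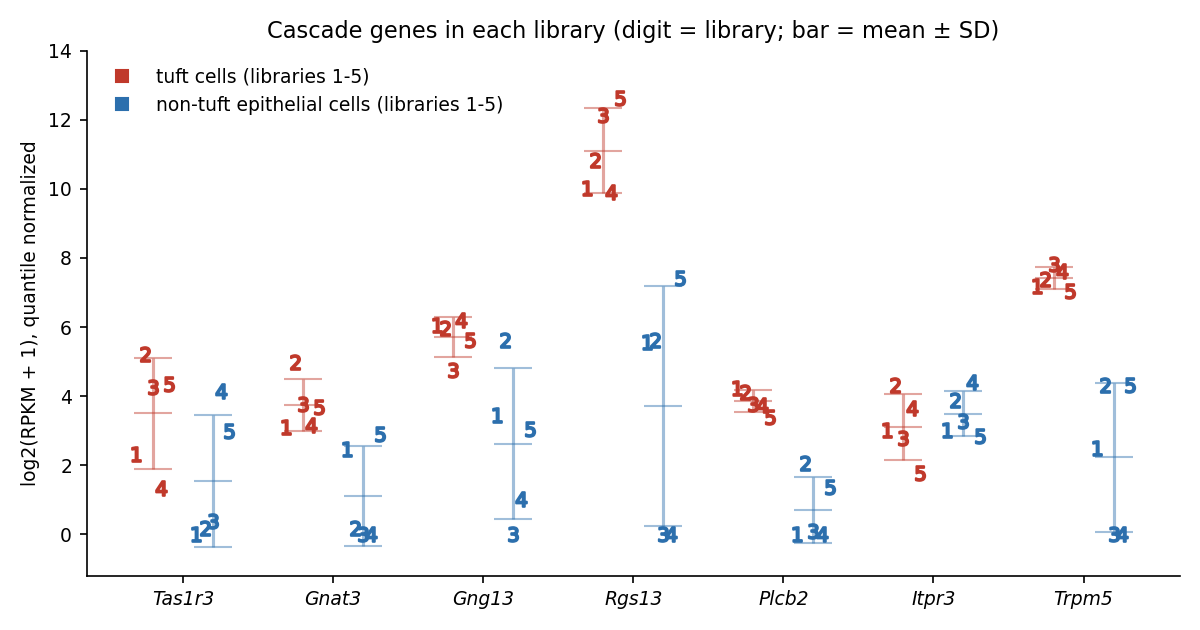
Levels of the 7 listed cascade genes on the log2(RPKM + 1) scale, with each digit one library of tuft cells (red) or non-tuft epithelial cells (blue) and bars for the mean ± SD of 5 libraries. Trpm5, Plcb2, Rgs13 and Gnat3 show no overlap between the groups, while Itpr3 spans 1.76 to 4.32 in tuft cells and 2.85 to 4.40 in non-tuft epithelial cells.

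Trpm5, on chromosome 7 of mm9 (150255058 to 150280547, minus strand), encodes the channel at the end of the cascade. In tuft libraries 1 to 5 its log2 level was 7.18, 7.40, 7.82, 7.62 and 7.05, and in non-tuft libraries 1 to 5 it was 2.49, 4.32, 0, 0 and 4.31. All tuft libraries therefore stood above all non-tuft libraries, and within the non-tuft group libraries 3 and 4 were at the floor. The difference was 5.19 ± 0.83 (SE) on the log2 scale, or 36.5-fold with 1 added to each value, at an adjusted p of 0.00130 (limma). The exact permutation test gave p = 0.00794, two-sided, the smallest that 5 against 5 libraries can give. It treats all libraries as separate, although the groups share mice. Leaving out any single library gave log2 fold changes between 4.63 and 5.71 and did not end the call. With 0.1 or 10 added in place of 1, Trpm5 was still called, with log2 fold changes of 6.59 and 3.45. Of its exon bases, 3.44% lie under Tssc4 on the opposite strand, a gene that did not pass the test (log2 fold change -1.31, adjusted p = 0.129, limma).

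Islet RNA was unevenly spread over the non-tuft libraries. The summed linear level of the 12 islet markers was 21681, 647, 2401, 17.3 and 2437 in non-tuft libraries 1 to 5, beside the log2 Trpm5 levels of 2.49, 4.32, 0, 0 and 4.31 given above. Libraries 1, 2 and 5 held both islet RNA and Trpm5, library 3 held islet RNA with Trpm5 at the floor, and library 4 had the lowest islet sum with Trpm5 at the floor. The leading hormone transcript on the log2 scale was Ins1 in libraries 1 (13.44) and 2 (8.25), Sst in library 3 (11.10) and Ppy in library 5 (9.76). In the tuft libraries the islet sum was 1.12 to 35.3, with Gcg and Ppy at the floor in all of them, and tuft library 3 had the lowest sum and the highest Trpm5 level. The part of islet RNA in the non-tuft Trpm5 values was not tested.

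Plcb2 (chromosome 2, 118533253 to 118554174, minus strand) encodes the phospholipase C beta that taste cells use. Its log2 level in tuft libraries 1 to 5 was 4.22, 4.13, 3.77, 3.75 and 3.41, and in non-tuft libraries 1 to 5 it was 0, 2.07, 0.10, 0 and 1.36. The groups did not overlap, and the tuft libraries lay close together. Tuft cells exceeded non-tuft epithelial cells by 3.15 ± 0.48 (SE) on the log2 scale (adjusted p = 9.53e-04, limma), with an exact permutation p of 0.00794. At this low level the fold change depended on the constant, and with 10 added in place of 1 it was 1.12 on the log2 scale, under the fold threshold.

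Rgs13 (chromosome 1, 145985797 to 146024502, minus strand) encodes a regulator that speeds the return of G protein alpha subunits to their inactive form. It was the most abundant cascade transcript per length, at 10.02, 10.82, 12.14, 9.91 and 12.63 in tuft libraries 1 to 5 on the log2 scale. Its non-tuft levels were 5.55, 5.61, 0.02, 0 and 7.43 in libraries 1 to 5. No non-tuft library reached the tuft range, and libraries 3 and 4 were again the lowest. This amounted to a log2 fold change of 7.38 ± 1.33 (SE; limma adjusted p = 0.00292). It was called in each of the 17 alternative fits, with log2 fold changes from 5.95 to 8.69.

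Rgs13 is also known from germinal center B cells and mast cells, so leukocyte transcripts are given beside it. The summed linear level of 7 listed leukocyte markers (of 11 in the list) was 19.1 to 48.3 in the tuft libraries and 0.467 to 127 in the non-tuft libraries. The highest sum was that of non-tuft library 5, with Cd79b at 6.22 and Ms4a1 at 3.53 on the log2 scale, which also had the highest non-tuft Rgs13 level. B cell transcripts were present in most tuft libraries. Cd79b was at 4.38, 0, 3.15, 3.95 and 3.85 and Cd79a at 2.35, 0, 0, 3.38 and 3.56 on the log2 scale in tuft libraries 1 to 5. In library 2, where these and Ms4a1 were listed at 0, Rgs13 was at 10.82, within the range of the other tuft libraries. The part of B cell or other leukocyte RNA in the Rgs13 values was not tested. Ptprc, the gene of the Cd45 protein used as a negative gate, was called higher in tuft cells (log2 fold change 2.72, adjusted p = 0.00292, limma). Its highest tuft level, 4.33, was in tuft library 2. Of 8 mast cell and eosinophil markers 1 was listed, Kit, at 3.36 to 5.41 in tuft cells and 1.33 to 3.63 in non-tuft epithelial cells. The highest Kit level was likewise in tuft library 2.

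Gnat3 (chromosome 5, 17468439 to 17525652, plus strand) encodes gustducin alpha. Its log2 level was 3.11, 4.98, 3.78, 3.15 and 3.67 in tuft libraries 1 to 5 and 2.46, 0.17, 0, 0 and 2.91 in non-tuft libraries 1 to 5. The groups were apart by a narrow margin, between 2.91 in non-tuft library 5 and 3.11 in tuft library 1, and 3 non-tuft libraries were at the floor. Gnat3 was higher in tuft cells by 2.63 ± 0.66 (SE) on the log2 scale (adjusted p = 0.0189, limma; exact permutation p = 0.00794). The call depended on single libraries. Without non-tuft library 2, 3 or 4 or tuft library 2 the adjusted p from limma was 0.0502 to 0.0550, with log2 fold changes of 2.32 to 2.40.

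Gng13 (chromosome 17, 25854116 to 25856351, plus strand) encodes the gamma subunit that pairs with gustducin in taste cells. Its log2 level was 6.05, 5.97, 4.76, 6.21 and 5.62 in tuft libraries 1 to 5 and 3.45, 5.61, 0, 1.02 and 3.03 in non-tuft libraries 1 to 5. The groups overlapped through non-tuft library 2, which stood within the tuft range. Gng13 was higher in tuft cells by 3.10 ± 0.86 (SE) on the log2 scale (adjusted p = 0.0318, limma; exact permutation p = 0.0159). Among the fits with a library left out, the call was kept only without non-tuft library 1 or 2. In the other 8 fits with a library left out the adjusted p from limma was 0.0501 to 0.0824. The call was also lost with 0.1 added in place of 1 (adjusted p = 0.110, limma). With 10 added the log2 fold change was 1.75, under the fold threshold. In the annotation 51.6% of the exon bases of Gng13 lie under exons of Chtf18 on the opposite strand. Smart-Seq2 does not mark the strand, so reads from these genes cannot be told apart there, and Chtf18 was not among the listed genes.

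Tas1r3 (chromosome 4, 155233377 to 155237471, minus strand) encodes the subunit shared by the sweet and umami receptors. Its log2 level was 2.31, 5.23, 4.25, 1.34 and 4.36 in tuft libraries 1 to 5 and 0, 0.17, 0.39, 4.16 and 2.98 in non-tuft libraries 1 to 5. The groups overlapped, and both held high and low libraries. Non-tuft library 4, in which Trpm5, Rgs13, Plcb2 and Gnat3 were at the floor, had the highest non-tuft level. A log2 fold change of 1.96 ± 0.93 (SE) did not pass the test (adjusted p = 0.212, limma; exact permutation p = 0.111). The adjusted p was 0.0694 to 0.398 over the 17 alternative fits. The exons of Tas1r3 share 1.02% of their bases with Dvl1 on the opposite strand.

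Itpr3 (chromosome 17, 27194249 to 27259168, plus strand) encodes the inositol trisphosphate receptor of the taste cascade, which pancreatic acinar cells also use. Its log2 level was 3.02, 4.32, 2.78, 3.66 and 1.76 in tuft libraries 1 to 5 and 3.02, 3.90, 3.29, 4.40 and 2.85 in non-tuft libraries 1 to 5. The groups overlapped almost entirely, and no library of either group was at the floor. Its log2 fold change was -0.38 ± 0.52 (SE; limma adjusted p = 0.695; exact permutation p = 0.468). With libraries centred on ribosomal protein genes, which took the median gene from a log2 fold change of 0.02 to 0.85, the Itpr3 value was 0.45 and thus changed sign. Centring shifts the log2 fold changes of all genes by the same amount. The Itpr3 value relative to the median gene, -0.40, is therefore the same under both scalings by construction. Tuft library 5, with the lowest Itpr3 level, also had the lowest summed acinar marker level at 698, and the part of acinar RNA in the Itpr3 values was not tested.

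Itpr2, another gene of the same receptor family, was called higher where Itpr3 was not. Its log2 level was 5.25, 5.84, 5.52, 5.79 and 5.46 in tuft libraries 1 to 5 and 2.21, 3.08, 2.91, 2.84 and 3.66 in non-tuft libraries 1 to 5, so the groups did not overlap. Tuft cells were higher by 2.63 ± 0.38 (SE) on the log2 scale (adjusted p = 6.59e-04, limma). Itpr1 was at 1.98 ± 0.40 (SD, n = 5) in tuft cells and 1.04 ± 0.96 (SD, n = 5) in non-tuft epithelial cells and did not pass the test (adjusted p = 0.255, limma). Within a library, the log2 difference of Itpr3 from Itpr2 was -2.46 ± 0.82 (SD, n = 5) in tuft cells, with Itpr2 above Itpr3 in all 5 libraries, and 0.55 ± 0.87 (SD, n = 5) in non-tuft epithelial cells, with Itpr3 above Itpr2 in 4 of 5.

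The same within-library difference was formed for each listed cascade gene and the gene of its family with the highest tuft level, a choice made after the values were seen, and it is given without a test. Plcb2 exceeded Plcb3 by 2.08 ± 0.51 (SD, n = 5) in tuft cells and lay at -1.75 ± 1.43 (SD, n = 5) relative to it in non-tuft epithelial cells. Trpm5 exceeded Trpm7 by 5.22 ± 0.63 (SD, n = 5) in tuft cells and differed from it by -0.28 ± 2.15 (SD, n = 5) in the non-tuft group. Rgs13 exceeded Rgs2 by 1.53 ± 1.16 (SD, n = 5) in tuft cells and lay at -3.46 ± 2.51 (SD, n = 5) relative to it in non-tuft epithelial cells. For these pairs and for Itpr3 with Itpr2 no tuft value lay within the non-tuft range. They did overlap for Gnat3 with Gnas, Gng13 with Gng12 and Tas1r3 with Tas2r126.

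**Figure D2:**
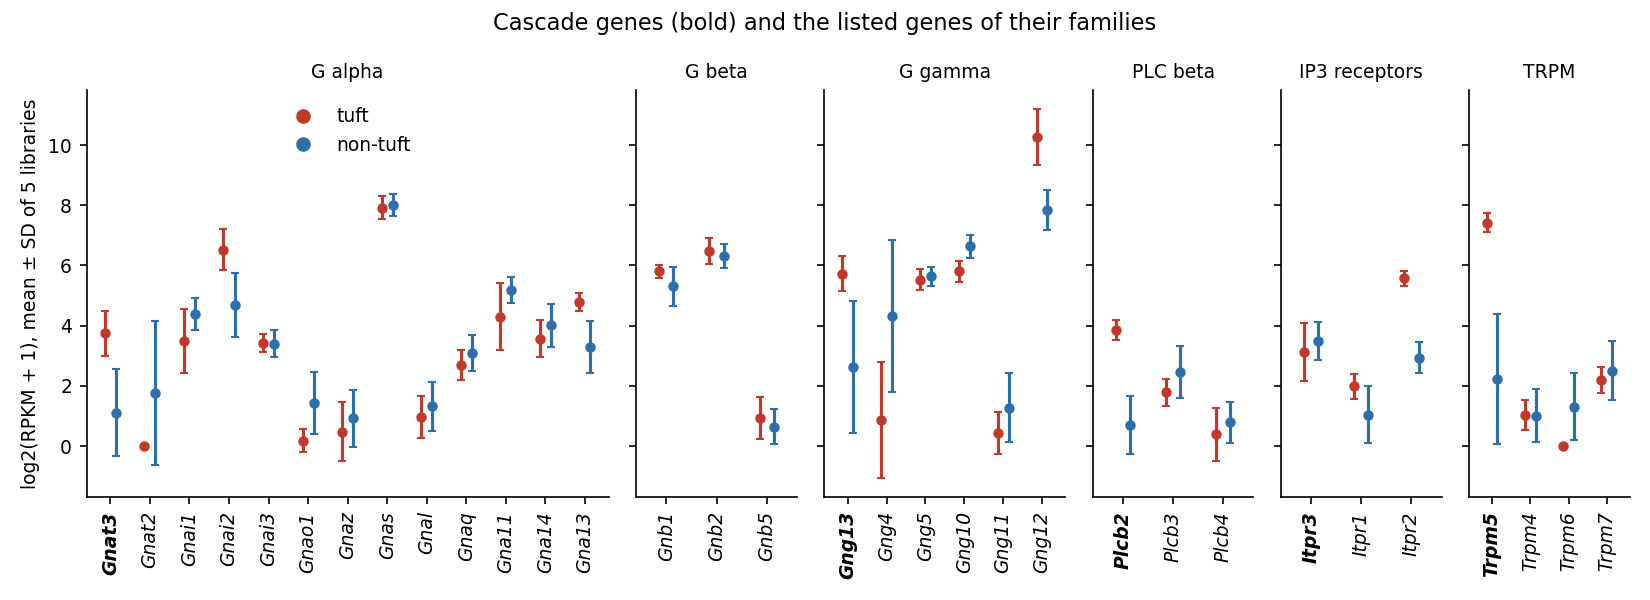
Mean ± SD of 5 libraries on the log2(RPKM + 1) scale for the listed cascade genes (bold) and the other listed genes of their families, in tuft cells (red) and non-tuft epithelial cells (blue). Itpr2 (5.57 against 2.94) and Gng12 (10.27 against 7.84) were called higher in tuft cells, and Itpr3 (3.11 against 3.49) was not.

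Among the other G protein genes, 1 of 20 was called, beside 8.31% of all genes in either direction. Gng12, a widely expressed gamma subunit gene, was at 10.27 ± 0.93 (SD, n = 5) in tuft cells and 7.84 ± 0.66 (SD, n = 5) in non-tuft epithelial cells, higher by 2.43 on the log2 scale (adjusted p = 0.00722, limma). Gng12 stood above Gng13 in every library of both groups. None of 12 other alpha subunit genes passed both thresholds. Gnai2, an inhibitory alpha subunit gene, came nearest, higher by 1.84 on the log2 scale (adjusted p = 0.0432, limma) but below the fold threshold, and its lowest tuft value of 5.77 lay above its highest non-tuft value of 5.72. No beta subunit gene was called. Gnb1 was at 5.81 ± 0.22 (SD, n = 5) in tuft cells and 5.31 ± 0.65 (SD, n = 5) in non-tuft epithelial cells (adjusted p = 0.490, limma).

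Of 14 other listed RGS genes 2 were called higher and 2 lower, beside 4.32% and 3.99% of all genes. Rgs2, which acts mainly on Gq alpha subunits, was at 9.58 ± 0.78 (SD, n = 5) in tuft cells and 7.18 ± 1.08 (SD, n = 5) in non-tuft epithelial cells (log2 fold change 2.40, adjusted p = 0.0145, limma). Rgs22 ranged from 1.06 to 4.43 in tuft cells and did not rise above the floor in any non-tuft library. Rgs5 fell in tuft cells, where it was at the floor in 4 libraries and at 0.64 in library 1, against 2.52 to 5.76 in the non-tuft libraries (adjusted p = 0.00115, limma). Rgs11 was at 2.05 ± 1.39 (SD, n = 5) in tuft cells and 5.36 ± 0.50 (SD, n = 5) in non-tuft epithelial cells (log2 fold change -3.31, adjusted p = 0.00327, limma). Without non-tuft library 3 the fold change of Rgs2 was just under 4. The median log2 fold change over the 14 was 0.26.

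Ordered by mean level per length in the tuft libraries on the log2 scale, Rgs13 (11.10) was followed by Trpm5 (7.41), Gng13 (5.72), Plcb2 (3.86), Gnat3 (3.74), Tas1r3 (3.50) and Itpr3 (3.11). Differences between neighbours were taken within each library, and as the pairs come from the observed order they are given without a test. Rgs13 exceeded Trpm5 by 3.69 ± 1.29 (SD, n = 5), Trpm5 exceeded Gng13 by 1.69 ± 0.78 (SD, n = 5) and Gng13 exceeded Plcb2 by 1.87 ± 0.56 (SD, n = 5), each in all 5 libraries. Below Gng13 the neighbouring genes were not apart beyond their spread. Plcb2 and Gnat3 differed by 0.12 ± 0.76, Gnat3 and Tas1r3 by 0.24 ± 1.05 and Tas1r3 and Itpr3 by 0.39 ± 1.93 (SD, n = 5).

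The cascade genes also differed in how evenly the tuft libraries expressed them. The SD of the log2 level over the 5 tuft libraries was 0.32 for Trpm5 and 0.33 for Plcb2. Among 253 and 1799 genes within 0.5 of their mean tuft level, 19.0% and 10.2% had a smaller SD. For Tas1r3 the SD was 1.61, and 95.4% of 1922 genes of similar level had a smaller one. Gng13 (0.58), Gnat3 (0.75), Itpr3 (0.96) and Rgs13 (1.23) lay between, and for Rgs13 too few genes had a similar level for this comparison.

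The non-tuft libraries were not alike in what they held of the cascade. Of the 5 called genes, 5 were above the floor in non-tuft library 5, 4 each in libraries 1 and 2, 2 in library 3 and 1 in library 4. Of all 12160 genes, 2395, 3753, 1442, 2349 and 1627 were at the floor in non-tuft libraries 1 to 5. Expressed as a share of the mean linear tuft level, Trpm5 was at 2.67% in non-tuft library 1, 10.95% in library 2 and 10.9% in library 5. The tuft markers were highest in the same libraries by their median. That share over 13 markers was 1.51% in library 1, 10.1% in library 2 and 8.66% in library 5, and it was 0 in libraries 3 and 4. Sox9, which is also a duct marker and was not called, and Ascl2 stood apart from the other markers, at 93.8% and 14.8% in library 3 and at 94.2% and 26.7% in library 4.

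The cascade genes differed in their shares within a library. Gng13 reached 87.4% of its tuft level in non-tuft library 2, where Sox9 was at 67.5% and the next marker, Hmx2, at 48.9%. Gnat3 was at 31.8% in non-tuft library 1, where Sox9 was at 65.7% and the next marker, Ascl2, at 19.3%. In library 5 Gnat3 was at 46.3%, with Sox9 at 40.5% and Ptgs1 at 37.9%, and in library 2 it was at the floor. Rgs13 had low shares throughout, up to 5.85% in library 5. Tas1r3 was at 106% in library 4 and Itpr3 between 67.4% and 219% in all libraries. These shares were computed after the values were seen and carry no test, and they rest on 1 library each.

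**Figure D3:**
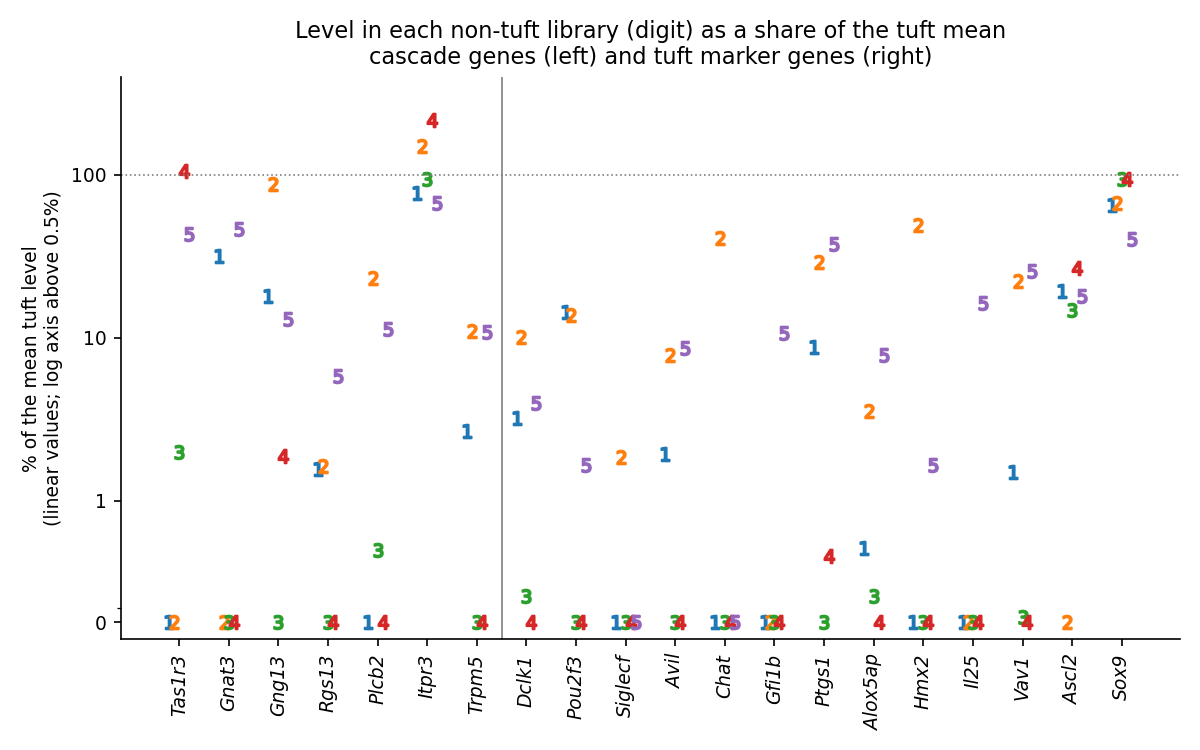
Linear level in each non-tuft library, marked by its number, as a percent of the mean tuft level (log axis above 0.5%), for the 7 cascade genes and 13 tuft marker genes. Libraries 1, 2 and 5 hold most of the signal of Trpm5, Rgs13 and the markers other than Sox9 and Ascl2, while Itpr3 lies between 67.4% and 219%, around the dotted line at the tuft mean.

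The promoters of the cascade genes were compared because several of these genes rose together. RefSeq promoter sequences (GRCm38.p6) were found for 7 of the 8 genes, and the 250 bases before the transcription start are shown for the 5 called genes of the cascade and for Itpr3, which was not called. They run 5′ to 3′ on the strand of the gene, with motif matches in capitals.
Trpm5, chr7:143094643-143094892, minus strand: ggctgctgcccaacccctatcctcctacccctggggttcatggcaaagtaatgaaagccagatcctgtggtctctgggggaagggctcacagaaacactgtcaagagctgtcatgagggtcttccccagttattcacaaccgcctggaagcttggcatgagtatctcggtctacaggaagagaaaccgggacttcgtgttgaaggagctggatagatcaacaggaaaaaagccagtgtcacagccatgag
Plcb2, chr2:118728439-118728688, minus strand: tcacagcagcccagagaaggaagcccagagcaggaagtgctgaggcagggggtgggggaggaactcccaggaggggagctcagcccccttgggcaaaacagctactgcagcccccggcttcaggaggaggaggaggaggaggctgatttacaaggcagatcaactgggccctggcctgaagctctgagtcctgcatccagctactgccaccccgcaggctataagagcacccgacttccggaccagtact
Rgs13, chr1:144177373-144177622, minus strand: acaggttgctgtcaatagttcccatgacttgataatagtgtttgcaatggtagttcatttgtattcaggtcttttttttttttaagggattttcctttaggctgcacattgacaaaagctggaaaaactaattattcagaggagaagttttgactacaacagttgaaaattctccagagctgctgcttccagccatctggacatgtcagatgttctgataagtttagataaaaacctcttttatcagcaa
Gnat3, chr5:17962320-17962569, plus strand: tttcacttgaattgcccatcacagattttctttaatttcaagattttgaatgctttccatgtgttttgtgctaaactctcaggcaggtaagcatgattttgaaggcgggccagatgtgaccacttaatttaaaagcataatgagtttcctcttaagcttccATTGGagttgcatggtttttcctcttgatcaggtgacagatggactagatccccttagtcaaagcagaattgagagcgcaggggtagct
Gng13, first start, chr17:25716922-25717171, plus strand: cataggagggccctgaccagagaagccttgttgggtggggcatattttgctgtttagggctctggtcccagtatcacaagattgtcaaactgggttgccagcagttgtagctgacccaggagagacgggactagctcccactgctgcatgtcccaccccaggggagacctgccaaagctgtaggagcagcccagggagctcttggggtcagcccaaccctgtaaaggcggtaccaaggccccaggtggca
Gng13, second start, chr17:25717278-25717527, plus strand: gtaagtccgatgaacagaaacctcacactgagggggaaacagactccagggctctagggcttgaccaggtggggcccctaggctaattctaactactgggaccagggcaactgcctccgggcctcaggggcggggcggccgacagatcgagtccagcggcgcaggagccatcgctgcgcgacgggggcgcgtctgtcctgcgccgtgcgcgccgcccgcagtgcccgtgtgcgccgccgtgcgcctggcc
Itpr3, chr17:27057054-27057303, plus strand: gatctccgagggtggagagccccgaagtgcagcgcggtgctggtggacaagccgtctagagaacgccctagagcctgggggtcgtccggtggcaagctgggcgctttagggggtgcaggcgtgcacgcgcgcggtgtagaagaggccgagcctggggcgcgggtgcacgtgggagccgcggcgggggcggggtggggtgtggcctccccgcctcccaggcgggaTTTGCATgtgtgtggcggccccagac

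The motifs searched on both strands, which do not overlap in these matches, were the core of the octamer that POU factors such as Pou2f3 bind (ATGCAAA), the TATA box (TATAAA) and the CCAAT box (CCAAT). The octamer core was found in the Itpr3 window alone, 26 to 20 bases before the start on the minus strand, and in 4.12% of all 32851 promoter windows of this length. The CCAAT letters were found in the Gnat3 window alone, 89 to 85 bases before the start, and in 33.8% of all windows. TATAAA was in none of the 8 windows of the 7 genes and in 12.4% of all windows. The windows differed in CpG dinucleotides. Rgs13 had 0, Gnat3 had 2, Plcb2 and Trpm5 had 4 each and Tas1r3 had 5, where 49.6% of all windows had at most 5. Itpr3 had 25 and a GC content of 72.0%, and 10.7% of all windows had at least 25. Gng13 has more than 1 start in the table, with 2 CpG in the first window and 25 in the second. Itpr2, which was called higher in tuft cells, had 22.

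Further genes of the pathway were taken from 15 lists of taste receptors, other chemosensory receptors, G protein subunits, effectors, regulators, cyclic nucleotide enzymes, calcium store proteins, excitability, transmission, and sour and salt taste. Of 107 listed genes other than the cascade genes, 15 were called higher and 7 lower in tuft cells, with a median log2 fold change of 0.14. Over all 12160 genes 4.32% were called higher and 3.99% lower.

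Among chemosensory receptors the evidence was sparse. Of 38 Tas1r and Tas2r symbols 2 were listed, Tas1r3 and the bitter receptor gene Tas2r126. Tas2r126 was at 0, 3.22, 3.60, 0.58 and 3.14 in tuft libraries 1 to 5 and not above the floor in non-tuft epithelial cells, and it did not pass the test (adjusted p = 0.0645, limma). Ffar3, a receptor gene for short-chain fatty acids, was at 4.19, 2.97, 4.58, 5.15 and 4.17 in tuft libraries 1 to 5 and reached 5.13 in non-tuft library 2, with no signal above the floor in the other non-tuft libraries. Its log2 fold change was 3.19 ± 0.91 (SE; limma adjusted p = 0.0370). Ffar2, its close relative, was called lower in tuft cells, with a log2 fold change of -2.08 ± 0.63 (SE; limma adjusted p = 0.0490). Both calls were fragile. That of Ffar3 was kept only without non-tuft library 2 or tuft library 2, that of Ffar2 only without non-tuft library 2 or tuft library 1, and that of Ffar2 also ended with centring on ribosomal protein genes.

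Of 9 listed genes of calcium store refilling 2 were called, both higher in tuft cells, beside 4.32% of all genes called higher. Atp2a3, which encodes a calcium pump of the endoplasmic reticulum, was at 8.24, 8.40, 8.79, 8.41 and 8.21 in tuft libraries 1 to 5 and at 5.20, 5.03, 4.86, 3.41 and 5.96 in non-tuft libraries 1 to 5. No library of either group overlapped the other (log2 fold change 3.52, SE 0.46; limma adjusted p = 3.39e-04). Lrmp, which encodes a membrane protein of the endoplasmic reticulum that binds inositol trisphosphate receptors, had a log2 fold change of 3.26 ± 0.49 (SE; limma adjusted p = 9.26e-04). The widely used pump gene Atp2a2 was at 3.98 ± 0.96 (SD, n = 5) in tuft cells and 4.28 ± 0.89 (SD, n = 5) in non-tuft epithelial cells. Orai1, a subunit of the store-operated calcium channel, was higher by 1.56 on the log2 scale (adjusted p = 0.0370, limma), below the fold threshold.

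In the cyclic nucleotide branch 2 of 18 genes were called, both higher, beside 4.32% of all genes called higher and 8.31% in either direction. Pde2a, a phosphodiesterase that cyclic GMP stimulates, was at 6.07 ± 0.46 (SD, n = 5) in tuft cells and 1.71 ± 1.25 (SD, n = 5) in non-tuft epithelial cells, without overlap (log2 fold change 4.35, adjusted p = 3.13e-04, limma). Adcy4, an adenylyl cyclase that beta and gamma subunits stimulate, was at 4.12 to 6.07 in tuft cells and at 4.58 in non-tuft library 5, the only non-tuft library above the floor (log2 fold change 4.13, adjusted p = 0.00536, limma). Of 12 helpers of G protein signaling 2 were called, both higher, beside 4.32% of all genes called higher. Arrb1, which encodes a beta-arrestin, and Ric8b, which encodes a chaperone of alpha subunits, had log2 fold changes of 3.14 and 2.15 (adjusted p of 0.00443 and 0.00339, limma). Without non-tuft library 3 the call of Ric8b was lost, as its fold change fell under 4.

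Genes of excitability and transmission were called in both directions, 4 higher and 4 lower of 17 listed, beside 4.32% and 3.99% of all genes. Panx1, a subunit of a channel that releases ATP, had a log2 fold change of 2.65 ± 0.63 (SE; limma adjusted p = 0.0151). Chat, the enzyme that makes acetylcholine, had one of 2.56 ± 0.54 (SE; limma adjusted p = 0.00704). Called lower were Gja1, a gap junction gene at the floor in all tuft libraries, Gabra4, and the ectonucleotidase genes Entpd1 and Entpd2, which break down extracellular ATP. Entpd2, the ectonucleotidase of glial-like taste cells, was at the floor in 3 tuft libraries and at 1.44 and 0.36 in tuft libraries 3 and 5, against 2.21 to 3.80 in the non-tuft libraries (adjusted p = 0.00135, limma). With centring on ribosomal protein genes the lower calls of Entpd1, Entpd2 and Gabra4 ended and that of Gja1 did not. The call of Entpd1 also ended without non-tuft library 2, and that of Gabra4 was kept only without non-tuft library 3 or 5. None of 4 listed sour and salt taste genes was called.

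**Figure D4:**
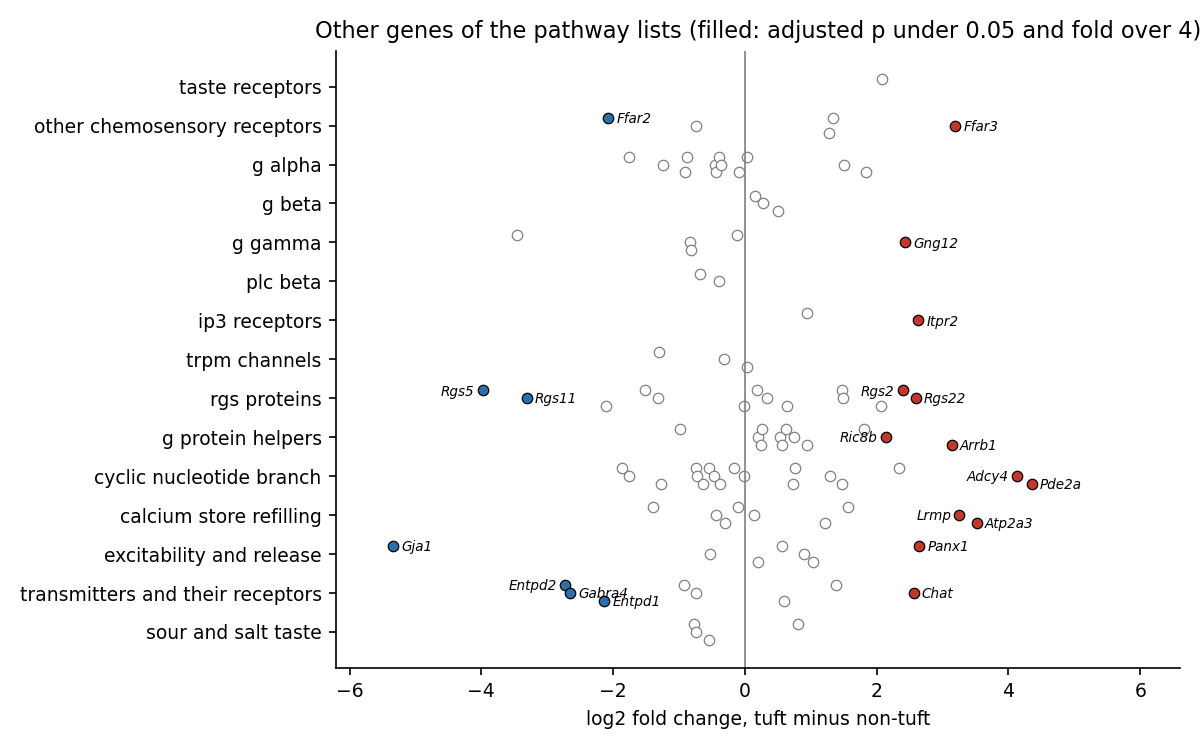
Log2 fold change of tuft against non-tuft epithelial cells for the other listed genes of the 15 pathway lists that are reported here, 1 row per list, with called genes filled (red higher, blue lower) and named. The lists of G alpha, G beta, PLC beta and TRPM genes have no called gene, and the RGS list has called genes on both sides of 0.

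Genes whose pattern over the 10 libraries was most like that of the cascade were found by the root mean square difference of values centred per gene. Nearest to the mean of the 7 cascade genes were Ethe1 (0.26 on the log2 scale), Hebp1 (0.50), Lrmp (0.51), Rab3b (0.60) and Ap4s1 (0.60), all called higher in tuft cells, Ap4s1 not without non-tuft library 3 or tuft library 2 or 3. For Trpm5 the nearest gene was Spib, a transcription factor of the ETS family, at 0.33. The nearest genes were Cables2 for Plcb2 (0.46), Fam83d for Gnat3 (0.62), Ppapdc1a for Gng13 (0.64), Manbal for Tas1r3 (0.94) and Snhg12 for Itpr3 (0.34). Spib, Cables2, Fam83d and Ppapdc1a were themselves called higher in tuft cells, whereas Manbal and Snhg12 did not pass the test. The difference between the groups is part of the pattern matched, so near genes have similar fold changes. Whether the near genes were called thus follows largely from the match and is no separate result.

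The count of called cascade genes depended on the constant and on single libraries. With 0.1 or 10 added in place of 1, 3 and 2 of the 7 genes were called. Gnat3 and Gng13 lost their calls with either constant, and Plcb2 with 10 added. The count was 3 without tuft library 2 or non-tuft library 3 or 4, since Gnat3 and Gng13 both lost their calls. Trpm5 and Rgs13 were called in all 17 alternative fits, Plcb2 in 16, Gnat3 in 11, Gng13 in 7, and Tas1r3 and Itpr3 in none.

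**Figure D5:**
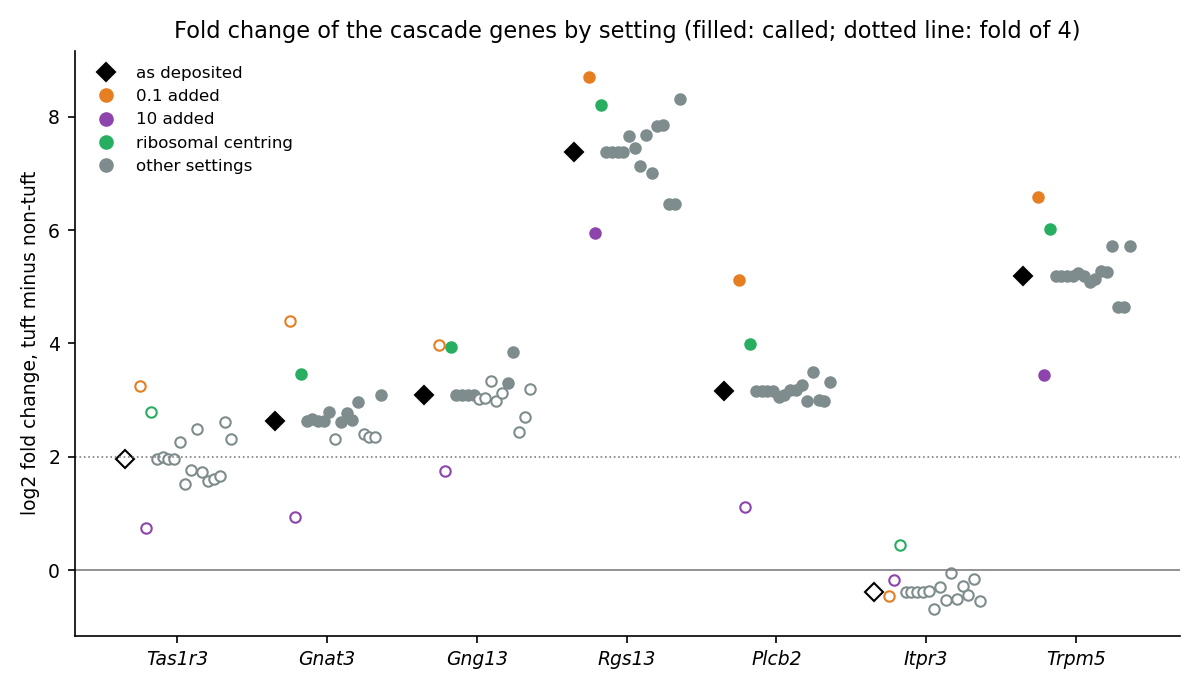
Log2 fold change of each cascade gene as deposited (diamond) and in the 17 alternative fits (circles), filled where the gene was called, with a dotted line at a fold change of 4. Trpm5 and Rgs13 were called in every fit and Tas1r3 and Itpr3 in none.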

How the data were processed

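The samples were 10 Smart-Seq2 libraries of 100 sorted cells, grouped as tuft or non-tuft from their titles. The authors mapped single-end reads to mm9 with HISAT2, quantified RPKM with StringTie and Ballgown, removed genes of low variance, took logarithms and quantile normalized the values. The deposited values are log2(RPKM + 1). Versions of these tools are not given in the sources used here. The table also holds the authors' own fold change, p-value and false discovery rate, which were not used.

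Tuft was compared with non-tuft by lmFit and eBayes of limma 3.58.1 (R 4.3.3) over all 12160 listed genes, without covariates or a filter, with Benjamini-Hochberg adjustment. A call required a fold change over 4 with an adjusted p under 0.05. The fit was also run on simulated data, drawn as independent normal values. These had no genes at the floor and no shared mice, so the run does not bear on calls of such genes. For the cascade genes a permutation test, exact and two-sided, was added. A fold change understates the change of low genes because 1 was added. Linear levels are 2 to the log2 value, minus 1. Each tuft library came from an individual mouse, and per the study both populations were sorted from 5 mice, so the groups share mice. Which non-tuft library shares a mouse with which tuft library is not stated in the sources used here. The main comparison and the permutation test both treat the libraries as separate.

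Positions are from an annotation of NCBIM37 (mm9), and promoters from a RefSeq table of GRCm38.p6. Reads of overlapping genes on opposite strands cannot be told apart.

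The cascade genes and gene lists were chosen with earlier results of these data known. Genes named are the cascade genes, in each of 15 lists every called gene and the uncalled gene with the smallest p, the genes nearest in pattern, and the genes of the sort and marker checks. Some genes that this rule selects are counted but not reported here by name or value, and are left out of the shares of tuft markers. Genes named beyond these (Itpr1, Atp2a2 and single markers) were chosen after their values were seen. Alternatives were the replicate block, constants of 0.1 and 10, a filter at a mean log2 value of 2, values centred on 77 ribosomal protein genes, floors set to 0, eBayes with trend and robust settings, other thresholds, and each library left out. Figures used Python 3.11.15 and matplotlib 3.10.9.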

Additional observations from a re-analysis of the deposited data

Results flagged for a closer look

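A library far from the others of its group was found for 10 of 106 groups of values. These were examined over 56 named genes, with floors set to 0. For normally distributed values about 1 in 20 groups, or 5.3, would be flagged. That rate does not hold here, as 1 library above a floor that all others share is always flagged. The number flagged therefore cannot be set against chance. None of the flagged groups was of a cascade gene. In non-tuft library 2, Ffar3 was at 5.13, Chat at 2.07 and Siglecf at 1.61 on the log2 scale, with the other non-tuft libraries at the floor. In non-tuft library 5, Adcy4 was at 4.58, with the others at the floor. Among tuft libraries, Gng4 was at 4.33 and Rgs5 at 0.64 in library 1. Entpd2 was at 1.44, Entpd1 at 0.96 and Pde4b at 0.18 in tuft library 3, and Gabra4 was at 0.71 in tuft library 4, with the others of each group no higher than 0.36. Gng4, a gamma subunit gene, was at 0 to 6.29 in the non-tuft libraries and did not pass the test (log2 fold change -3.46, adjusted p = 0.0739, limma). Tuft library 1 also had the highest islet marker level of the tuft libraries, at 35.3, with Chga at 2.87. The part of islet RNA in the Gng4 value was not tested.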

How the results depend on the processing

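Genes called numbered 1010 (525 higher, 485 lower). Centring on ribosomal protein genes gave 1582 (1360 higher, 222 lower), so 86.0% of the calls were higher against 52.0%, and shifted the median gene to 0.85 on the log2 scale. With 10 added there were 278 (162 higher, 116 lower), and 7 pathway list genes were called against 22. At an adjusted p under 0.01, 292 genes were called lower. Of the cascade genes 5 were called, 3 with 0.1 added, 2 with 10 added, 3 at an adjusted p under 0.01, and 3 to 5 with a library left out. Under ribosomal centring the log2 fold changes of Itpr3 (0.45), Plcb3 (0.16) and Snhg12 (0.55), none called, changed sign. Centring moves the log2 fold changes of all genes by the same amount, so genes with a small negative value change sign. The causes of that shift and of the other changes were not tested.

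Same-numbered libraries correlated in their deviations from the group means at 0.079 to 0.24, over 0.1 in 3 of 5 pairs, and 4 of 5 tuft libraries matched their own number best. With the replicate number as a block 1009 genes and 5 cascade genes were called, and Ffar2 and Ffar3 lost their calls. Of 987 alternative values for 59 named genes, 887 kept direction and call, 78 lost and 19 gained the call and 3 changed sign. Low levels limit Plcb2, Gnat3, Tas1r3 and Itpr3. The constant moved the fold changes of the higher genes as well. From 0.1 to 10 added, the log2 fold change of Trpm5 went from 6.59 to 3.45 and that of Rgs13 from 8.69 to 5.95, both called throughout. That of Itpr3 moved least, from -0.45 to -0.16. The fold change and call of Gng13 also depended on the constant.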
